A study of Homo sapiens with 18 samples.

Results

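PEO1 is a human cell line from a high-grade serous ovarian cancer, and the series title gives its p53 as mutant. The comparison described here set PEO1 cells that had received an siRNA against p53 (sip53) against PEO1 cells that had received a control siRNA (siControl), both without estradiol. It used the 3 sip53 and the 3 siControl libraries labelled 0 h and untreated, 6 of the 18 libraries of the series, and it was read over all 15318 genes with enough counts to test. All cells, in both groups, had been kept for 48 h in phenol red-free medium with 10% charcoal-stripped serum, which removes steroid hormones. The other 12 libraries came from the same siRNAs followed by 10 nM estradiol (E2) for 2 h or 8 h. They were used for the estimate of spread and to ask whether each difference was also present with hormone.

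The p53 protein is a transcription factor that binds DNA as a tetramer and, when the cell is stressed, switches on genes that arrest the cell cycle, repair DNA or start cell death. Missense mutations in its DNA-binding domain are very common in serous ovarian cancer, and the mutant protein often accumulates. An siRNA is a short double-stranded RNA that guides an Argonaute protein to cut the matching mRNA. Each arm is labelled with 1 siRNA name and untransfected cells were not analysed here, so an effect of losing p53 and an effect of the reagent cannot be told apart. Nothing in the labels ties the 3 samples of a group to separate cultures. The p-values therefore describe only how these samples scattered, and that scatter may be technical.

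RNA was measured with a 3' end kit, in which a count stands for a transcript end, and levels are given as CPM (counts scaled to a common library size) after TMM scaling. Total counts were 9225939 to 10290764 in the sip53 libraries and 7542457 to 10132570 in the siControl libraries. Ovarian carcinoma markers were partly present in both groups. PAX8, the transcription factor of Müllerian epithelium, stood at 126, 128 and 116 CPM in sip53 and at 126, 149 and 137 CPM in siControl. The 17 ovarian carcinoma markers in the table summed to 1356 to 1561 CPM in sip53 and 1153 to 1304 CPM in siControl, with SPINT2, KLK6 and LCN2 the largest contributors. SOX17 and FOLR1 were at 0 in all 6 libraries and MUC1 was at 0.41 CPM or less. Marker sums are in CPM of the total count, without TMM scaling. Markers of other cell types were measured in the same way. Leukocyte markers summed to 14.4 to 17.7 CPM in sip53 and 9.67 to 15.5 CPM in siControl, with 9 of 13 at 0 in all 6 libraries, among them PTPRC. Endothelial markers summed to 3.36 to 6.22 and 1.86 to 4.34 CPM, with 5 of 9 at 0, KDR among them. Fibroblast markers summed to 166 to 183 CPM in sip53 and 166 to 189 CPM in siControl, with 5 of 13 at 0, COL1A2, DCN and LUM among them, and THY1 and FBLN1 made up most of the sum. Mesothelial markers summed to 492 to 614 CPM in sip53 and 302 to 398 CPM in siControl, nearly all of it the keratin KRT5, with 3 of 8 at 0.

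The sip53 libraries differed among themselves in one respect that touches many of the results. On the first principal component of all 18 libraries (24.1% of the variance) sip53 replicate 1 lay at 3.10 and replicates 2 and 3 at -18.8 and -28.3, with siControl at 24.8, 49.9 and 42.8. Replicate 1 of each group therefore lay nearest the other group. In 573 of the 787 genes called lower (72.8%) sip53 replicate 1 was the sip53 library with the highest level, and in 500 of them (63.5%) siControl replicate 1 was the siControl library with the lowest. Among the 610 genes called higher, sip53 replicate 1 was the lowest of its group in 327 (53.6%). Replicate 2 of siControl had the lowest total and stood apart on the second component, at 41.7. Results that changed when any of these was left out are given below with that value.

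After p53 knockdown genes were called in both directions, and the called steps were larger downward. Of 15318 genes, 610 were higher in sip53 (3.98% of those tested) and 787 were lower (5.14%), at an adjusted p under 0.05, which is 9.12% in all. These shares are the background for every list count given below. At an unadjusted p under 0.05 there were 3886. The median log2 fold change, always given as sip53 over siControl, was 0.47 over the higher genes and -0.69 over the lower genes, against -0.0025 over all genes. A change of at least 1 on the log2 scale was reached by 34 of the higher and 182 of the lower genes. The 3 sip53 libraries did not overlap the 3 siControl libraries in 601 of the higher and 716 of the lower genes, and did not overlap in 24.5% of all genes tested.

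Protein-coding genes made up 583 of the higher and 663 of the lower genes, and pseudogenes 8 of the higher and 63 of the lower. Of 12723 protein-coding genes tested 9.79% were called and of 658 pseudogenes 10.8%, against 9.12% of all genes, with both directions together. The pseudogene calls were mostly lower, whereas 3.98% of all genes were higher and 5.14% lower. The lower genes had transcripts with a median GC content of 44.4% and a median gene span of 64.0 kb, against 51.7% and 22.9 kb in the higher genes and 49.4% and 28.6 kb in all genes tested. With each library's trend of level with transcript length and GC content removed, 720 genes were higher and 765 lower, of which 450 and 638 were the genes called above. A fit to the 6 libraries alone called 68 higher and 216 lower. The number called also moved with single libraries. Without siControl replicate 1, 2 or 3 it was 1052, 334 and 277 higher genes, and without sip53 replicate 1, 2 or 3 it was 752, 235 and 136. For the lower genes it was 991, 398 and 333 without siControl replicate 1, 2 or 3, and 1199, 276 and 153 without sip53 replicate 1, 2 or 3. More genes were thus called lower than higher in each of these fits except the one without siControl replicate 1, where the order turned. In each of the 6 fits 109 of the higher and 133 of the lower genes were called again, and 0 genes were called in the opposite direction.

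**Figure D1:**
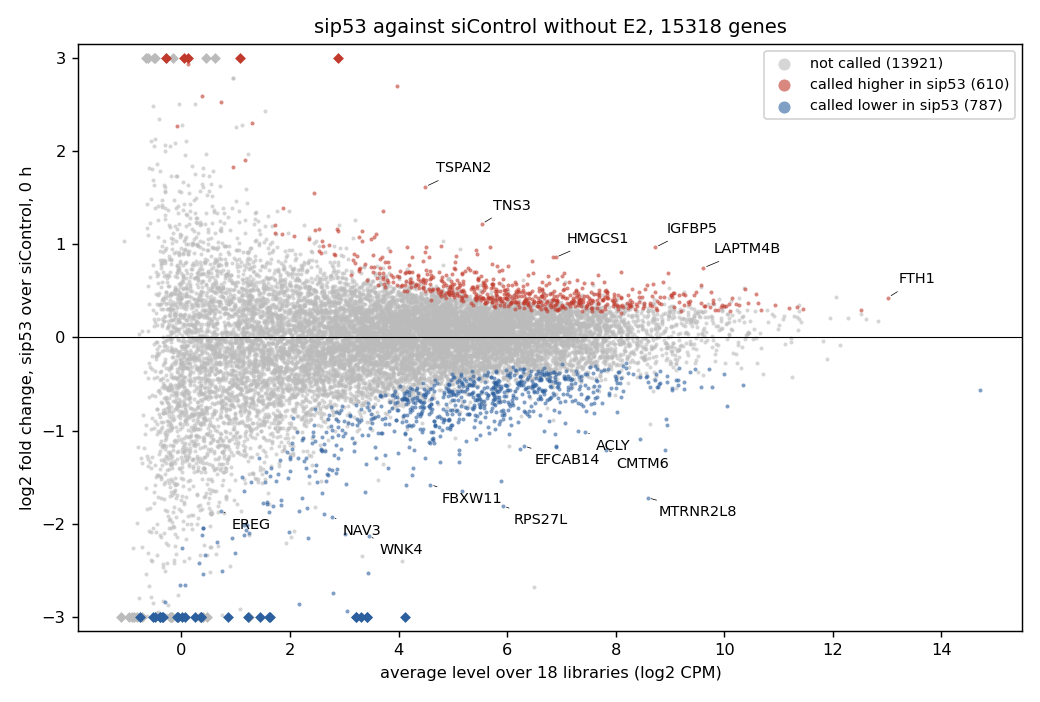
Log2 fold change of sip53 over siControl without E2 (vertical axis) against the average level over 18 libraries in log2 CPM (horizontal axis, itself a log scale), 1 point per gene, with genes beyond 3 in either direction drawn as diamonds at the edge. The 787 lower genes reach further from 0 than the 610 higher genes, and TSPAN2, TNS3, IGFBP5 and HMGCS1 are among the labelled genes above 0.

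The sharpest single differences were falls, and some of them, such as CMTM6, varied little among the libraries of a group. CMTM6, a membrane protein that keeps the checkpoint ligand PD-L1 from being degraded, had 130, 130 and 143 CPM in sip53 and 312, 303 and 312 CPM in siControl. Its log2 fold change was -1.20 ± 0.09 (SE, adjusted p = 2.75e-08), and it was -1.24 and -1.29 at 2 h and 8 h of E2. The gene for PD-L1 itself, CD274, was low and not called, at 4.19, 3.75 and 2.38 CPM in sip53 and 3.90, 2.57 and 3.91 CPM in siControl. CMTM4, a relative that acts on the same ligand, was higher (0.45 ± 0.13), though it stayed called in just 1 of the 6 fits with a library removed, and CMTM7 was not called (0.09 ± 0.10).

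FBXW11, an F-box protein that hands phosphorylated targets such as beta-catenin and the NF-kB inhibitor to the ubiquitin ligase SCF, stood at 13.1, 9.85 and 11.2 CPM in sip53 and 35.1, 30.5 and 36.4 CPM in siControl (-1.58 ± 0.16, adjusted p = 3.78e-06). All 3 sip53 libraries lay far below all 3 siControl libraries. Its close paralog BTRC, which shares these targets, was not called (0.18 ± 0.20), and its groups overlapped. LUC7L2, a component of the U1 splicing particle, had 151, 138 and 127 CPM in sip53 and 240, 230 and 259 CPM in siControl (-0.81 ± 0.09), while LUC7L (-0.04 ± 0.12) and LUC7L3 (-0.33 ± 0.13) were not called. DENR, which with MCTS1 recycles ribosomal subunits and restarts translation, had 104, 85.5 and 93.4 CPM in sip53 and 169, 158 and 168 CPM in siControl (-0.80 ± 0.11). MCTS1 was at 0.21 ± 0.10 and not called. In each of these cases 1 gene fell, and the paralogs, or for DENR the partner, did not pass the test. The difference between the genes was not tested.

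Other falls, some with more scatter within a group, were called again in all 6 fits with a library removed. EFCAB14, a calcium-binding domain protein, had 55.3, 44.4 and 45.6 CPM in sip53 and 134, 83.0 and 109 CPM in siControl (-1.17 ± 0.13). CCDC43 had 41.4, 44.2 and 39.8 CPM in sip53 and 79.9, 84.7 and 93.1 CPM in siControl (-1.04 ± 0.11). Both were called lower again at 2 h and 8 h, with log2 values between -1.26 and -0.95. HPCAL1, a neuronal calcium sensor protein (-0.84 ± 0.11), LDLRAD3, a membrane receptor (-0.88 ± 0.13), NAV3, a microtubule-binding navigator protein (-1.93 ± 0.28), and CEP83, a protein of centriole appendages (-1.21 ± 0.18), were lower as well. DMTF1, a transcription factor that activates ARF and thereby the p53 pathway, had 30.9, 20.2 and 14.6 CPM in sip53 and 51.3, 58.4 and 56.8 CPM in siControl (-1.34 ± 0.20). In DMTF1 the 3 sip53 libraries differed among themselves by more than the 3 siControl libraries, with replicate 1 the highest. The kinase WNK4, a regulator of ion transport, was lower by a log2 of -2.13 ± 0.41, whereas WNK1 was not called (-0.04 ± 0.09).

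**Figure D2:**
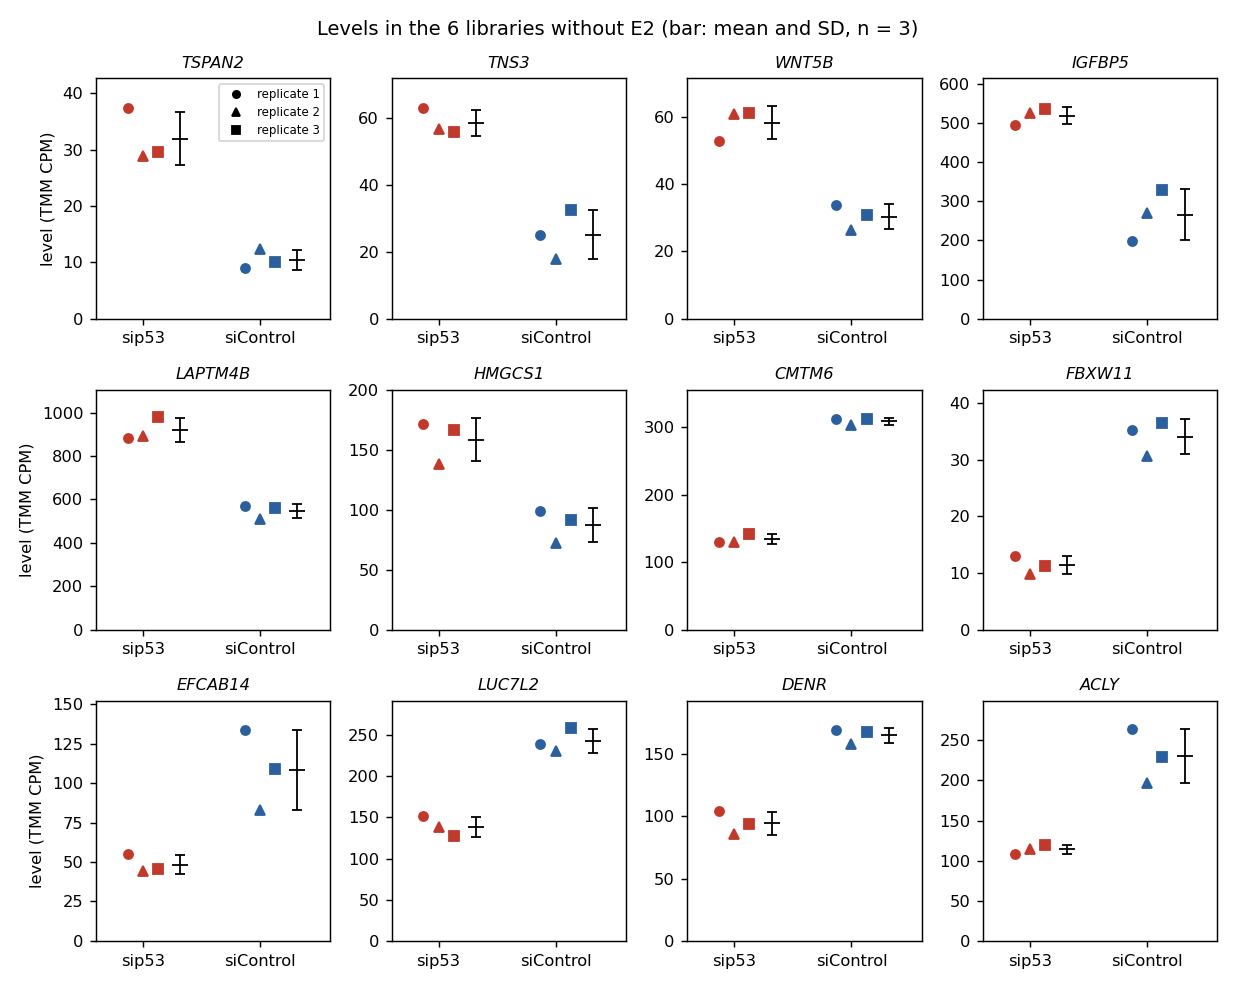
Level in TMM CPM (vertical axes, linear from 0) of 12 genes in the 3 sip53 and 3 siControl libraries without E2, with the symbol shape giving the replicate and the bar the mean and SD (n = 3). In each gene shown the 2 groups do not overlap, with CMTM6 at 130 to 143 CPM in sip53 and 303 to 312 CPM in siControl.

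Among genes that p53 is known to activate, a few fell and most were not called. Of 36 tested targets 5 were lower and 3 higher, with a median log2 of -0.10, and with the trend of length and GC removed 10 were lower and 4 higher. Without siControl replicate 2 or sip53 replicate 2 or 3 there were 3 lower, and 2 were higher when any library but siControl replicate 1 was left out. RPS27L, a ribosomal protein paralog and direct p53 target, was at 43.9, 17.2 and 21.8 CPM in sip53 and 99.8, 88.8 and 103 CPM in siControl (-1.81 ± 0.24, adjusted p = 0.000162). RPS27, the ribosomal protein it was duplicated from, went the other way without passing the test (385, 342 and 400 CPM in sip53, 349, 250 and 282 CPM in siControl, 0.35 ± 0.12, adjusted p = 0.0623). The paralogs therefore stood in a different proportion in the 2 groups, with sip53 replicate 1 again nearest siControl for RPS27L.

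CDKN1A, which encodes the p21 inhibitor of cyclin-dependent kinases, had 12.4, 13.4 and 14.9 CPM in sip53 and 21.7, 26.3 and 18.8 CPM in siControl (-0.71 ± 0.17, kept in 4 of the 6 fits). ASCC3, a helicase of alkylation repair and ribosome quality control, was lower (-0.57 ± 0.13, kept in 5 of the 6 fits). In either direction 16 of the 36 targets did not overlap between the groups, against 24.5% of all genes. A log2 above 0 was found in 13 of the 36. Several well-known targets lay lower in all 3 sip53 libraries than in any siControl library but did not pass the test. These were the apoptosis gene BAX (-0.37 ± 0.14), the repair genes XPC (-0.31 ± 0.11) and DDB2 (-0.44 ± 0.15), the mitochondrial reductase FDXR (-0.35 ± 0.14) and the RNA-binding protein ZMAT3 (-0.38 ± 0.16). XPC and ZMAT3 were called lower at both 2 h and 8 h. GDF15, a secreted stress signal, was barely measured without E2, at 2.20, 1.93 and 1.45 CPM in sip53 and 1.80, 2.31 and 3.42 CPM in siControl. CCNG1, a cyclin G that p53 induces, was higher, at 56.4, 47.6 and 53.6 CPM in sip53 and 41.1, 16.6 and 26.5 CPM in siControl (0.89 ± 0.19). DRAM1, an autophagy gene on the list, was higher too (0.53 ± 0.10, kept in all 6 fits). It had 147, 165 and 169 CPM in sip53 and 119, 111 and 102 CPM in siControl.

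Several genes of the cell surface and of adhesion were higher. TSPAN2, a tetraspanin that organises membrane proteins, had 37.3, 28.8 and 29.6 CPM in sip53 and 8.91, 12.4 and 10.0 CPM in siControl (1.62 ± 0.20, adjusted p = 5.32e-05). Of 21 tested tetraspanins the other one called was CD81 (0.43 ± 0.08), and the 9.52% called is near the 9.12% of all genes. TNS3, which links integrins to actin in focal adhesions, had 63.1, 56.8 and 55.9 CPM in sip53 and 25.1, 17.97 and 32.4 CPM in siControl (1.22 ± 0.15), while TNS1 was at -0.52 ± 0.25 and not called.

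Both integrin subunits that release TGF-beta from its latent form were higher. ITGB8 stood at 105, 94.7 and 108 CPM in sip53 and 54.3, 45.9 and 74.2 CPM in siControl (0.82 ± 0.14), and ITGB6 at 139, 132 and 135 CPM in sip53 and 97.2, 74.7 and 96.9 CPM in siControl (0.59 ± 0.12). Their common partner ITGAV was not called (0.39 ± 0.15) and its groups overlapped. TGFBR2, the type II receptor of TGF-beta, had 25.8, 27.1 and 28.8 CPM in sip53 and 14.1, 12.1 and 18.6 CPM in siControl (0.87 ± 0.19), with TGFBR1 at 0.04 ± 0.17. ID3, an inhibitor of helix-loop-helix factors that responds to BMP signals, was higher (0.69 ± 0.16). Of 30 tested genes of the TGF-beta and BMP pathway these 2, TGFBR2 and ID3, were higher and 0 lower, with a median of 0.15. The 6.67% called is below the 9.12% of all genes. Without sip53 replicate 1 there were 2 lower, and without sip53 replicate 3 there was 1 higher. With E2 the TGFBR2 difference was 0.21 at 2 h and 0.14 at 8 h and was not called.

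Over the 40 tested integrin and focal adhesion genes 6 were higher and 2 lower (median 0.04), and the lower pair were the focal adhesion kinase PTK2 (-0.42 ± 0.10) and the kindlin FERMT1 (-0.39 ± 0.10). Without sip53 replicate 1 there were 5 lower, and without replicate 2 or 3 there were 0, and the higher count was 4 without any of siControl replicates 2 and 3 and sip53 replicates 2 and 3. CAV1, the coat protein of caveolae, was at 224, 215 and 245 CPM in sip53 and 177, 141 and 167 CPM in siControl (0.50 ± 0.10). Of 34 mesenchymal and matrix genes 6 were higher and 3 lower (26.5% called), with a median of -0.11. The counts were 3 and 0 without sip53 replicate 2 or 3. Leaving out any one siControl library gave 1 lower. Basement membrane chains were split. The collagen IV chain COL4A1 had 93.5, 88.5 and 91.3 CPM in sip53 and 66.7, 53.9 and 63.0 CPM in siControl (0.57 ± 0.11), and COL4A2 was also higher (0.43 ± 0.11). Of the laminin chains, LAMA5 was higher (0.53 ± 0.15), while LAMA3 (-0.45 ± 0.14) was lower. The matrix protein SPARC (0.49 ± 0.10) and the protease ADAMTS15 (1.08 ± 0.22) were higher. FN1, the fibronectin gene, was not called (0.16 ± 0.09), and VIM, the vimentin of mesenchymal cells, was nearly absent at 0.856 to 2.90 CPM in sip53 and 1.83 to 2.70 CPM in siControl.

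Keratins, the intermediate filaments of epithelial cells, had 6 of 19 tested members higher and 0 lower, with a median of 0.23. KRT5 stood at 489, 588 and 520 CPM in sip53 and 328, 276 and 385 CPM in siControl (0.69 ± 0.11), and KRT19 at 1425, 1611 and 1686 CPM in sip53 and 1141, 1173 and 1099 CPM in siControl (0.47 ± 0.09). KRT8, KRT80, KRT7 and KRT18 were higher by 0.30 to 0.43. The count was 3 without siControl replicate 3 or without sip53 replicate 2, 2 without sip53 replicate 3, and 3 with the trend of length and GC removed. In the fit to the 6 libraries alone it was 1. The list medians were larger with E2, at 0.41 at 2 h and 0.43 at 8 h. The adhesion molecule CDH1 (0.35 ± 0.13) and EPCAM (0.19 ± 0.11) were not called. Other surface or secreted products that were higher in all 6 fits were LAPTM4B, a lysosomal membrane protein with 882, 891 and 982 CPM in sip53 and 571, 510 and 562 CPM in siControl (0.75 ± 0.08), its paralog LAPTM4A (0.49 ± 0.09), the tetraspan protein TM4SF1 (0.60 ± 0.09), the heparin-bound growth factor carrier FGFBP1 (0.58 ± 0.10), the carboxypeptidase CPA4 (0.97 ± 0.14) and the syndecan SDC2 (0.98 ± 0.16).

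Ligands and receptors of growth signals moved in both directions. In the WNT pathway 3 of 31 tested genes were higher and 3 lower (median 0.07), which is 19.4% called, against 9.12% of all genes. WNT5B, a ligand that signals without beta-catenin, had 52.7, 60.8 and 61.3 CPM in sip53 and 33.8, 26.3 and 30.8 CPM in siControl (0.94 ± 0.14). The receptor ROR1, to which WNT5 ligands bind, had 63.9, 66.7 and 66.7 CPM in sip53 and 43.9, 40.04 and 44.2 CPM in siControl (0.62 ± 0.10). DKK1, a secreted inhibitor of the beta-catenin branch, was low and higher in sip53 (5.89, 6.74 and 5.08 CPM, against 1.90, 2.05 and 2.81 CPM in siControl, 1.39 ± 0.33). CTNNB1, beta-catenin itself, was higher (0.31 ± 0.10), and APC (-0.54 ± 0.16), FZD6 (-0.47 ± 0.13) and WNT7B (-0.50 ± 0.15) were lower. None of these last 4 calls was kept in more than 3 of the 6 fits. The lower count was 0 without siControl replicate 3 or without sip53 replicate 2 or 3, and the higher count was 1 without sip53 replicate 2 and 2 without siControl replicate 2 or 3 or sip53 replicate 3.

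Of 12 tested members of the EGF receptor and ligand list 4 were lower, all of them ligands, and 1 was higher, with a median of -0.02 and 6 above 0. AREG had 37.8, 28.9 and 31.2 CPM in sip53 and 54.3, 64.3 and 64.8 CPM in siControl (-0.90 ± 0.17), HBEGF had 93.3, 89.4 and 98.2 CPM in sip53 and 118, 125 and 120 CPM in siControl (-0.37 ± 0.09), and BTC had 10.2, 6.74 and 9.64 CPM in sip53 and 14.7, 16.9 and 16.7 CPM in siControl (-0.86 ± 0.22). EREG was below 2.3 CPM in every library (-1.86 ± 0.56, kept in 1 of the 6 fits). The lower count was 1 without siControl replicate 2 or without sip53 replicate 2 or 3, the AREG call alone being kept in all 6. ERBB3 lost its call without sip53 replicate 3, and 2 members were higher without replicate 1. The receptor EGFR (0.16 ± 0.09) and ERBB2 (0.17 ± 0.12) were not called, and ERBB3 was higher (209, 229 and 229 CPM in sip53, 139, 178 and 166 CPM in siControl, 0.47 ± 0.10).

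In the insulin-like growth factor axis 2 of 13 genes were higher and 2 lower, which is 30.8% called, against 9.12% of all genes. IGFBP5, a secreted binding protein, stood at 495, 525 and 537 CPM in sip53 and 198, 269 and 330 CPM in siControl (0.97 ± 0.15), and IRS2, the adaptor below the insulin and IGF receptors, at 958, 982 and 981 CPM in sip53 and 718, 556 and 698 CPM in siControl (0.57 ± 0.09). IGFBP3 (-0.48 ± 0.14) and the clearance receptor IGF2R (-0.57 ± 0.15) were lower, with overlapping groups and calls kept in 2 of the 6 fits. The lower count was 0 without siControl replicate 1 or 3 or sip53 replicate 2 or 3, and 3 without siControl replicate 2 or sip53 replicate 1. The adaptor IRS1 was low and not called (-0.22 ± 0.24).

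Of the lipid synthesis lists several members were higher, and 1 that acts upstream was lower. Cells make cholesterol from acetyl-CoA through mevalonate, and the factor SREBP2, encoded by SREBF2, switches on the whole pathway when sterols run low. Of 24 tested genes of synthesis and uptake 12 were higher and 0 lower, 23 had a log2 above 0, and the median was 0.43. The count ran from 7 without sip53 replicate 3 to 15 without siControl replicate 1, and was 4 in the fit to the 6 libraries alone. Along the pathway, HMGCS1, which makes HMG-CoA, had 172, 138 and 166 CPM in sip53 and 98.9, 72.1 and 91.6 CPM in siControl (0.86 ± 0.12). IDI1, the isomerase of the isoprenoid branch, had 43.5, 35.4 and 36.9 CPM in sip53 and 28.6, 11.5 and 22.5 CPM in siControl (0.88 ± 0.19). CYP51A1, which demethylates lanosterol, had 168, 127 and 145 CPM in sip53 and 112, 70.3 and 103 CPM in siControl (0.62 ± 0.13). In all 3 genes replicate 2 was the lowest library of its group.

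EBP, a sterol isomerase, had 171, 184 and 189 CPM in sip53 and 128, 125 and 130 CPM in siControl (0.50 ± 0.08), and DHCR7, which makes cholesterol in the last step, had 142, 133 and 135 CPM in sip53 and 94.8, 87.8 and 90.4 CPM in siControl (0.59 ± 0.10). SREBF2 itself was higher by less (0.38 ± 0.09, kept in 4 of the 6 fits). INSIG1, which holds SREBP2 in the endoplasmic reticulum, was not called (0.48 ± 0.17).

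The promoters of the list were searched for 3 short motifs. RefSeq windows on GRCh38.p14, from 250 bases before to 50 bases after the gene start, were at hand for 18 of the 24 tested list members and for 10904 of all genes tested. The CCAAT box, the site of the factor NF-Y that works beside SREBP at many sterol genes, was searched as CCAAT on both strands. It was in 15 of the 18 windows (83.3%), against 36.8% of the 10904. Of the 7 genes called higher with a window 5 held it. The 120 bases before the start held 0 matches in CYP51A1 and IDI1. The E-box CACGTG was in 3 of 18 (16.7%, against 10.1%). The sterol element searched as TCACNCCAC on both strands was in 1 of 18 (5.56%, against 1.09%). A match is a description of the letters in the window and not a site shown to be bound. The 3 called genes with a window and the smallest adjusted p, each of which has a match, are shown, for the 120 bases before the start, on the gene's own strand, with the CCAAT letters or their complement ATTGG in capitals.
HMGCS1 (chr5:43313413-43313532, minus strand): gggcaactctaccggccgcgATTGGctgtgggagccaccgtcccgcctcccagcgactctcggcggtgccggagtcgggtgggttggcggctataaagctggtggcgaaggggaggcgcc
EBP (chrX:48521688-48521807, plus strand): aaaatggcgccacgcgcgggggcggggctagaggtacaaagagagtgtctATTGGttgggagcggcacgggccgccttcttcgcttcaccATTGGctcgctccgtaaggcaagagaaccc
DHCR7 (chr11:71448394-71448513, minus strand): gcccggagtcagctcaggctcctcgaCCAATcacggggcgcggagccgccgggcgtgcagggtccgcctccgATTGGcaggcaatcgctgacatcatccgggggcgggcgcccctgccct
HMGCS1 has 1 such match in this stretch, EBP has 2 and DHCR7 has 2, 1 in each orientation.

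ACLY, which splits cytosolic citrate into the acetyl-CoA that feeds both sterol and fatty acid synthesis, was lower. It had 108, 115 and 119 CPM in sip53 and 264, 197 and 229 CPM in siControl (-1.01 ± 0.11, adjusted p = 9.98e-06), and -1.07 and -0.81 at 2 h and 8 h. SLC25A1, the carrier that exports citrate from mitochondria, had 53.8, 77.3 and 72.3 CPM in sip53 and 44.1, 40.04 and 40.2 CPM in siControl (0.71 ± 0.14). CS, the citrate synthase, was also higher (0.45 ± 0.09), and ACSS2, which makes acetyl-CoA from acetate, was not called (0.22 ± 0.14). The sip53 and siControl libraries did not overlap for ACLY. Of 11 tested fatty acid synthesis genes 4 were higher and ACLY was the 1 lower (median 0.26), with 2 higher without siControl replicate 3 or sip53 replicate 3. SCD, the desaturase that makes oleate, had 325, 330 and 375 CPM in sip53 and 225, 174 and 234 CPM in siControl (0.70 ± 0.10). The elongase ELOVL5 (0.62 ± 0.11) and the synthase FASN (0.35 ± 0.08) were higher too.

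Genes of energy metabolism and of the ribosome were shifted upward by small amounts, and how many were called depended on single libraries. Of 23 glycolysis genes 8 were higher and 0 lower (median 0.29), with 4 without siControl replicate 2, 2 without siControl replicate 3 and 1 and 2 without sip53 replicate 2 and 3. LDHA, which reduces pyruvate to lactate, had 1442, 1512 and 1568 CPM in sip53 and 1123, 930 and 1093 CPM in siControl (0.52 ± 0.08). LDHB, the isoform that favours the reverse reaction, was not called (0.29 ± 0.12). Of 24 genes listed for the tricarboxylic acid cycle 5 were higher (median 0.21), among them the citrate synthase CS (0.45 ± 0.09). Another was MDH1, the cytosolic malate dehydrogenase, which is on the list although the cycle is mitochondrial. MDH1 had 147, 163 and 150 CPM in sip53 and 100, 108 and 102 CPM in siControl (0.57 ± 0.09). The count of the cycle list ran from 2 without siControl replicate 2 or sip53 replicate 2 or 3 to 8 without siControl replicate 1, with 3 without siControl replicate 3. In the fit to the 6 libraries alone 1 glycolysis gene and 1 gene of the cycle list were higher.

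The respiratory chain had 11 of 37 complex I subunits and 12 of 39 subunits of complexes II to V higher and 0 lower, with medians of 0.28 and 0.31. ATP5MF, a subunit of the ATP synthase, had 142, 155 and 153 CPM in sip53 and 114, 100 and 99.8 CPM in siControl (0.52 ± 0.09). Of 79 cytosolic ribosomal protein genes 76 had a log2 above 0 (median 0.32) and 20 were higher. Without siControl replicate 1 the counts were 17, 27 and 58, for complex I, complexes II to V and the ribosome. Without siControl replicate 2 they were 1, 2 and 1, without siControl replicate 3 they were 4, 5 and 0, without sip53 replicate 2 they were 4, 5 and 2, and without sip53 replicate 3 they were 1, 1 and 0. In the fit to the 6 libraries alone they were 0, 1 and 0. The medians stayed above 0 with the trend of length and GC removed (0.23, 0.29 and 0.29).

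Iron genes moved with 1 regulator of iron in the other direction. IREB2, an RNA-binding protein that in low iron blocks ferritin translation and stabilises transferrin receptor mRNA, had 46.2, 47.0 and 44.5 CPM in sip53 and 81.6, 88.3 and 71.3 CPM in siControl (-0.81 ± 0.10, adjusted p = 7.53e-05). ACO1, the other protein of this kind, was not called (0.34 ± 0.14). Of 11 iron genes 4 were higher and IREB2 was the 1 lower (median 0.28), with 1 higher without sip53 replicate 3 and 2 without siControl replicate 2. In the fit to the 6 libraries alone 0 were higher. FTH1, the ferritin heavy chain that stores iron, had 8927, 8682 and 9684 CPM in sip53 and 7493, 6113 and 6690 CPM in siControl (0.43 ± 0.09). TFRC, the receptor that brings iron in, had 264, 255 and 291 CPM in sip53 and 221, 187 and 193 CPM in siControl (0.43 ± 0.09). Storage and uptake genes were therefore both higher in sip53.

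The glutathione and NRF2 list was divided in the same way. Of 32 genes 8 were higher and 2 lower, with a median of 0.30. SLC7A11, the cystine importer that supplies glutathione synthesis, had 104, 117 and 101 CPM in sip53 and 176, 173 and 176 CPM in siControl (-0.71 ± 0.09, adjusted p = 7.96e-05), and -0.80 and -1.08 at 2 h and 8 h. Its heavy chain SLC3A2 was not called (0.20 ± 0.09). TXNRD1, the thioredoxin reductase, was lower (-0.84 ± 0.17), with sip53 replicate 1 at 77.4 CPM just above siControl replicate 2 at 76.9 CPM. The peroxiredoxin PRDX6 (0.59 ± 0.11) and the membrane transferase MGST1 (0.56 ± 0.10) were higher in all 6 fits. The higher count was 16 without siControl replicate 1, 5 and 3 without siControl replicates 2 and 3, and 2 without sip53 replicate 2 or 3.

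Of 19 serine and folate enzymes 3 were higher and 2 lower. MTHFD1L, the mitochondrial formate producer, had 63.4, 69.4 and 66.2 CPM in sip53 and 101, 102 and 106 CPM in siControl (-0.63 ± 0.10). ALDH1L2, its neighbour in the mitochondrial folate pathway, had 18.3, 10.1 and 12.96 CPM in sip53 and 24.5, 33.9 and 32.4 CPM in siControl (-1.13 ± 0.20). These 2 were lower in all 6 fits, whereas the higher count was 0 without siControl replicate 2 or 3 or sip53 replicate 3, and 1 without sip53 replicate 2. Of 24 ATF4 stress genes 4 were lower and 1 higher (median -0.08, 20.8% called). Of 39 lysosomal genes 5 were higher and 0 lower (median 0.26), with 9 without sip53 replicate 1 and 2 without sip53 replicate 3. That is 12.8% called, against 9.12% of all genes. SLC17A5, the sialic acid exporter, had 13.3, 13.4 and 16.0 CPM in sip53 and 6.91, 6.42 and 7.21 CPM in siControl (1.05 ± 0.19).

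Of 50 tested remodelers and histone methyltransferases 10 were lower and 1 was higher, 8 had a log2 above 0 and the median was -0.21. The lower count was 13 without siControl replicate 1 and 14 without sip53 replicate 1, against 6 and 3 without siControl replicates 2 and 3 and 3 and 2 without sip53 replicates 2 and 3. NSD1, which methylates histone H3 at lysine 36, had 115, 65.2 and 55.7 CPM in sip53 and 147, 157 and 170 CPM in siControl (-1.004 ± 0.20). Its relatives NSD2 (-0.11 ± 0.08) and NSD3 (-0.20 ± 0.09) were not called. CHD9, a chromodomain helicase, had 99.7, 95.9 and 89.5 CPM in sip53 and 122, 170 and 170 CPM in siControl (-0.69 ± 0.12), and CHD2 (-0.60 ± 0.12) and CHD8 (-0.52 ± 0.14) were also lower. EZH1, a Polycomb methyltransferase, was lower (-0.79 ± 0.19), and EZH2 was not called (-0.22 ± 0.10).

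Zinc finger genes, most of which encode DNA-binding repressors, had 32 of 459 lower and 5 higher, with 163 above 0 and a median of -0.13. That is 8.06% called with both directions together, against 9.12% of all genes. The calls were mostly lower, whereas 3.98% of all genes were higher and 5.14% lower. The lower count was 48 without siControl replicate 1, 14 and 11 without siControl replicates 2 and 3, and 15 and 4 without sip53 replicates 2 and 3. ZNF714 had 34.1, 36.0 and 35.0 CPM in sip53 and 59.97, 87.4 and 70.0 CPM in siControl (-1.05 ± 0.14). In homologous recombination and Fanconi repair 6 of 32 genes were lower and 0 higher (median -0.27), with 12 lower without sip53 replicate 1, 2 without siControl replicate 2 or 3, 1 without sip53 replicate 2 or 3, and 2 with the trend of length and GC removed. FANCB, a subunit of the Fanconi core complex, had 16.1, 8.78 and 6.32 CPM in sip53 and 23.9, 26.2 and 23.8 CPM in siControl (-1.24 ± 0.26). The kinase ATR, which signals stalled forks, was lower (-0.63 ± 0.14), and BRCA2 was not called (-0.49 ± 0.21).

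Of 23 regulators of G1 3 were lower and 0 higher, with a median of 0.14, and 1 was lower without sip53 replicate 2. CDK6, the kinase that opens the G1 to S transition, had 195, 109 and 120 CPM in sip53 and 258, 211 and 236 CPM in siControl (-0.74 ± 0.18), while CDK4 was not called (0.01 ± 0.12). RBL1, a pocket protein of the retinoblastoma family, had 37.6, 30.5 and 30.2 CPM in sip53 and 48.2, 52.2 and 49.97 CPM in siControl (-0.61 ± 0.12). DNA replication (1 higher and 2 lower of 44) and mitosis genes (1 higher and 2 lower of 41) had call rates below that of all genes. Of 34 interferon and RNA sensor genes the 1 called was RIGI, a sensor of double-stranded RNA (-0.67 ± 0.14). It stood at 39.4, 35.3 and 36.2 CPM in sip53 and 58.1, 61.0 and 57.5 CPM in siControl. The 2.94% called in this list is below the 9.12% of all genes.

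**Figure D3:**
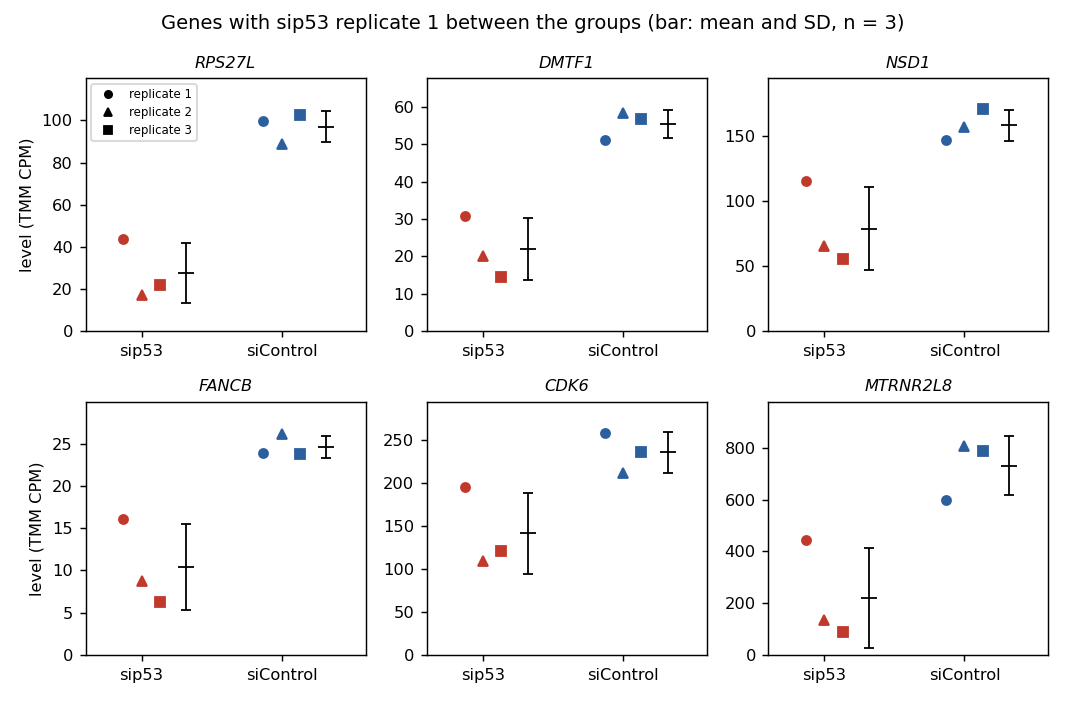
Level in TMM CPM (vertical axes, linear from 0) of RPS27L, DMTF1, NSD1, FANCB, CDK6 and MTRNR2L8 in the sip53 and siControl libraries without E2, 1 point per library with its replicate shown by shape. In each, sip53 replicate 1 lies between the other sip53 libraries and siControl, as for NSD1 at 115 CPM against 65.2 and 55.7 CPM in sip53 and 147 to 170 CPM in siControl.

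**Figure D4:**
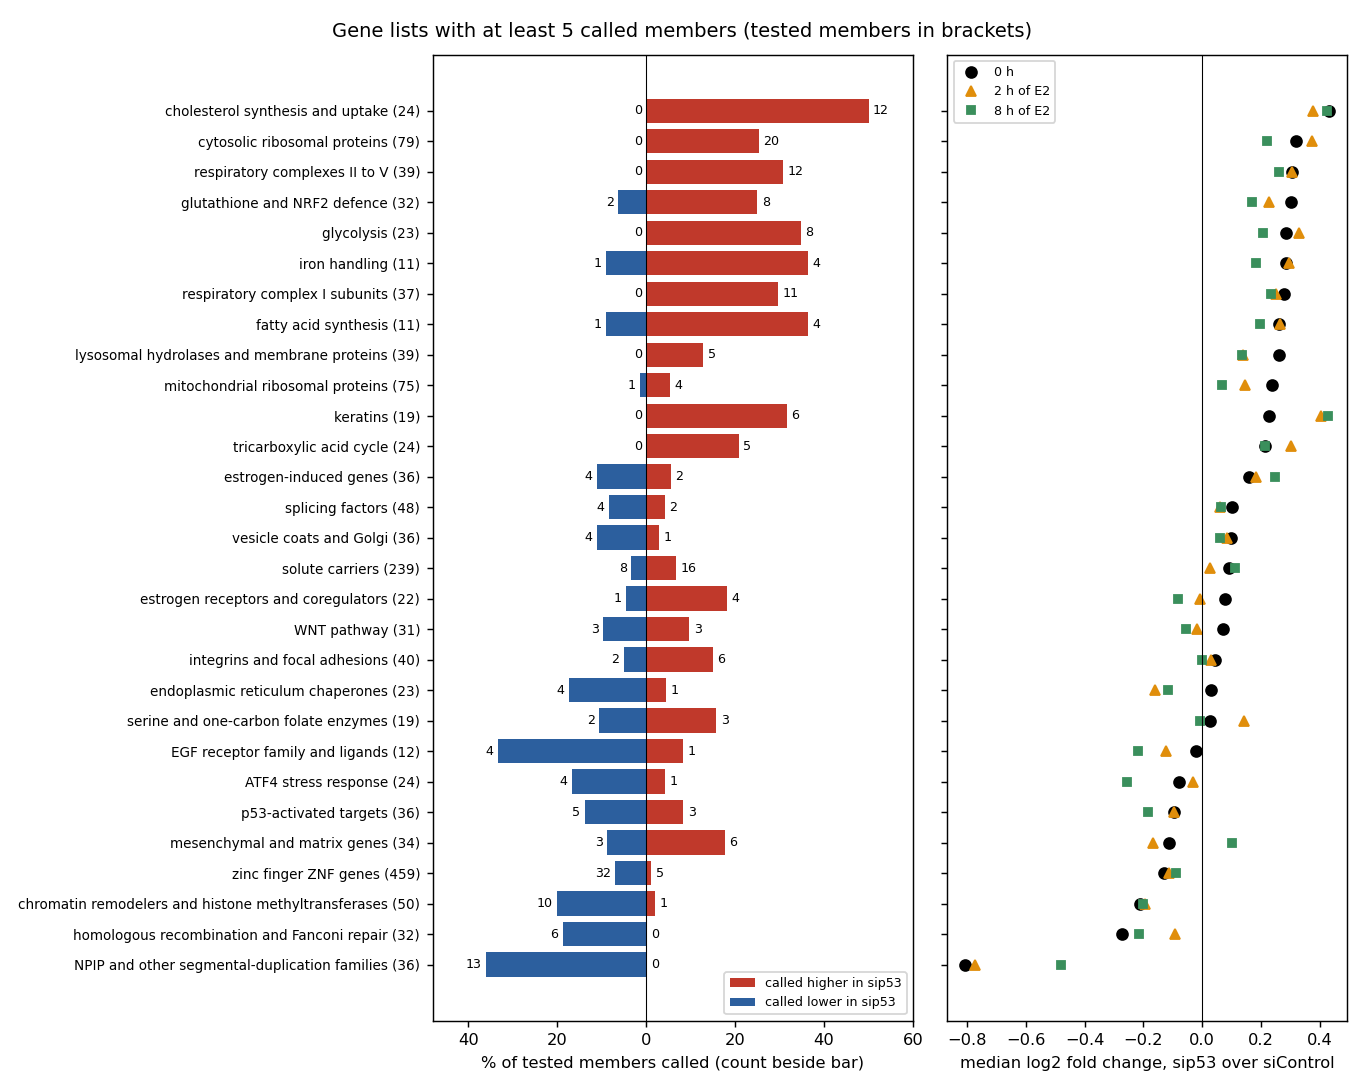
Gene lists with at least 5 called members: the share of tested members called higher or lower in sip53 without E2 in percent, with counts (left), and the median log2 fold change of all tested members without E2 and at 2 h and 8 h (right). Cholesterol synthesis has 12 of 24 members higher and the chromatin list 10 of 50 lower, against 3.98% and 5.14% of all genes.

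Since the series concerns estrogen signalling, the receptor was looked at before any hormone was given. ESR1, the gene for estrogen receptor alpha, had 97.5, 92.7 and 96.1 CPM in sip53 and 57.2, 78.1 and 66.3 CPM in siControl (0.51 ± 0.12, adjusted p = 0.0114). CITED2, a coactivator that binds CBP and p300, had 35.5, 35.8 and 33.4 CPM in sip53 and 17.9, 12.4 and 22.5 CPM in siControl (0.98 ± 0.16). Of 22 receptors and coregulators 4 were higher and 1 lower (22.7% called). There was 1 higher without sip53 replicate 3, and there were 2 without siControl replicate 3. Without replicate 1 of either group 2 were lower, and in the other 4 fits with a library removed 0 were. Of 36 genes known to be induced by estrogen 2 were higher and 4 lower (median 0.16), which is 16.7% called, against 9.12% of all genes. The lower ones included STC2, a secreted glycoprotein (-0.48 ± 0.08), and the sulfate carrier SLC26A2 (-0.66 ± 0.12). Without sip53 replicate 1 there were 5 higher, and without siControl replicate 2 or 3 or sip53 replicate 2 or 3 there was 1.

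Genes with near-identical copies gave some of the steepest values, and their counts are uncertain because reads can be split among copies. A list of NPIP and other duplicated families had 36 tested members, of which 13 were lower and 0 higher (median -0.81). It had 7 lower without siControl replicate 3 or sip53 replicate 2, and 5 without sip53 replicate 3. The list was matched on the start of gene names. Its lower members therefore include TBC1D31 (-0.78 ± 0.16), which shares the start of its name with a duplicated family but is not a copy of it. NPIPB3 had 0.0998, 0.535 and 0.726 CPM in sip53 and 24.8, 65.8 and 33.5 CPM in siControl. GOLGA8B had 58.2, 62.0 and 41.5 CPM in sip53 and 96.8, 147 and 128 CPM in siControl. The MTRNR2L genes, nuclear copies resembling mitochondrial ribosomal RNA, were also lower. Among the named genes 0 were mitochondrially encoded, so reads of the mitochondrial RNA itself may have been counted here. The 2 sources cannot be told apart. MTRNR2L8 had 443, 133 and 88.4 CPM in sip53 and 599, 808 and 788 CPM in siControl (-1.72 ± 0.42), so that sip53 replicate 1 stood nearer siControl than the other sip53 libraries did. MALAT1, a nuclear long noncoding RNA picked after its values were seen because it is so abundant, had 25551, 23080 and 17703 CPM in sip53 and 24868, 34086 and 39054 CPM in siControl (-0.56 ± 0.15, kept in 2 of the 6 fits), with overlapping groups.

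Nearly all called genes kept their sign with hormone, and a part of them was called again. Of the 610 higher genes 601 had the same sign at 2 h of E2 and 599 at 8 h, and 280 and 211 were called the same way. Of the 787 lower genes 780 and 777 had the same sign, and 574 and 461 were called. The share of all genes with the same sign was not worked out, so the same-sign counts have no background beside them. Over all genes, 12.2% were called at 2 h and 8.96% at 8 h, in either direction. The sip53 and siControl libraries at 2 h and 8 h are other libraries than those at 0 h, but all share 1 estimate of spread. They also share the split of library numbers by arm. The difference between the knockdown effect with E2 (mean of 2 h and 8 h) and without it was tested directly. In edgeR's quasi-likelihood test 0 of 15318 genes passed, with 551 at an unadjusted p under 0.05 and a smallest adjusted p of 0.647, and DESeq2 called 2.

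Some genes with an unadjusted p under 0.005 in that test did not pass the correction and are given as values. They are a selection, and others with a p as small, such as NPIPB11 and ERVK3-1, are not described. NPC1, which moves cholesterol out of lysosomes, had 59.2, 63.9 and 65.8 CPM in sip53 and 42.4, 43.0 and 42.0 CPM in siControl without E2 (0.57 ± 0.10), and its log2 was 0.18 at 2 h and -0.04 at 8 h. GALM, a sugar mutarotase, had 8.18, 8.35 and 9.02 CPM in sip53 and 4.41, 4.75 and 4.64 CPM in siControl, a log2 of 0.89, against 0.06 and -0.03 with E2. TXNIP, an inhibitor of thioredoxin and glucose uptake, was not called without E2 (-0.19 ± 0.17) and stood at -0.64 and -1.24 at 2 h and 8 h. F3, tissue factor, had 28.3, 28.0 and 26.0 CPM in sip53 and 61.9, 39.5 and 56.8 CPM in siControl (-0.94 ± 0.14), with -0.34 and -0.40 under E2.

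**Figure D5:**
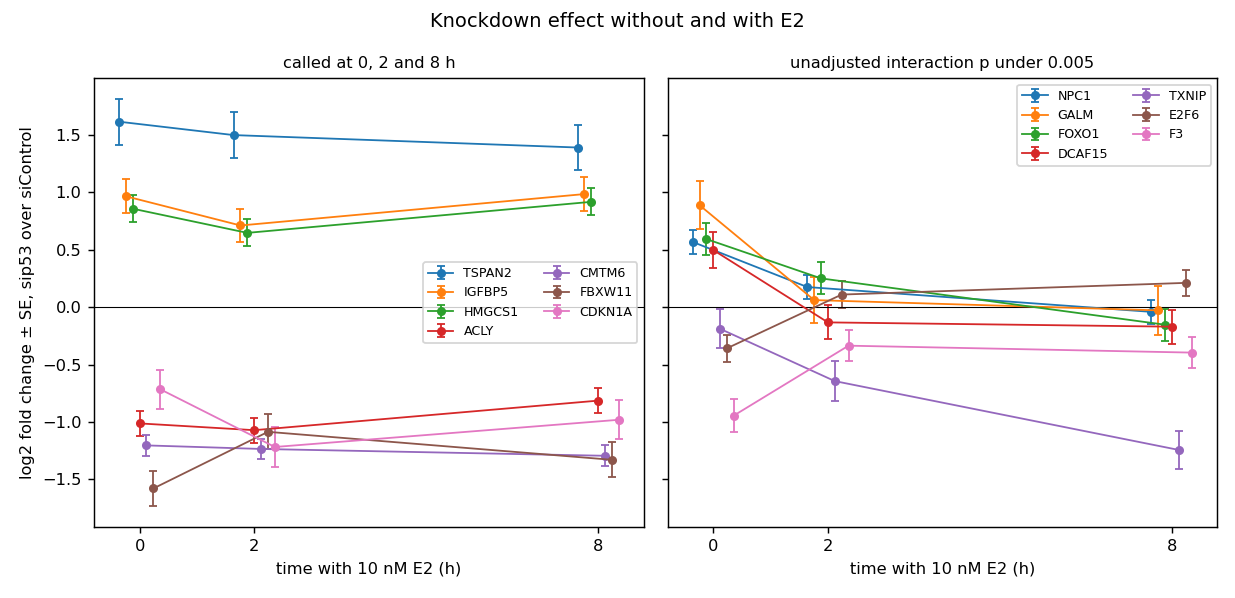
Log2 fold change of sip53 over siControl (vertical axis, bars are SE) at 0, 2 and 8 h of E2 (horizontal axis, hours): left, genes called at all 3 times, right, genes with an unadjusted p under 0.005 for the difference with and without E2. CMTM6 stays between -1.29 and -1.20 throughout, while NPC1 goes through 0.57, 0.18 and -0.04.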

How the data were processed

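RNA of 18 PEO1 samples (6 groups of 3) was sequenced from 200 ng with the QuantSeq 3' mRNA-Seq V2 FWD kit and 16 PCR cycles, per the labels' protocols. The authors deposited 1 table of RSEM expected counts, and the submitters' processing notes name cutadapt, Bowtie2, RSEM 1.3.3, MultiQC and hg19. The sources used here do not give the annotation, and genes were named from GENCODE v29 (0.635% of counts stayed unnamed). All expected counts were whole, so rounding moved 0 values. The PCR reads carry no molecular identifiers in the sources used here, and totals were 7542457 to 11307199 per sample.

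Genes passing filterByExpr (minimum count 10) were scaled by TMM and fitted with edgeR 4.0.16 quasi-likelihood models in R 4.3.3 over all 18 libraries. The contrast was sip53 minus siControl at 0 h, with Benjamini-Hochberg adjustment over all 15318 genes. The standard error is the log2 fold change over the root of F. The procedure was tested on simulated data. Alternatives were RLE and upper-quartile scaling, DESeq2 1.42.0, other count filters, the 0 h libraries alone, a replicate block, removal of the trend with transcript length and GC content, and leaving out each library. Where a fit left out a library, the other groups supplied the spread.

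Named genes were chosen among those with the largest fold change or smallest adjusted p in each direction and the called members of each gene list. Their relatives, and genes among those with the lowest p-values for the difference with E2, were added. Further list members are given as values. The members and lists were chosen with earlier results of these data known. The level of the targeted transcript and of some list members is not reported here.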

Additional observations from a re-analysis of the deposited data

How the results depend on the processing

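No gene called in the comparison was called in the opposite direction under any alternative. The order of the counts turned without siControl replicate 1 (1052 higher, 991 lower). Some list medians also changed sign. The median of p53 targets was 0.018 without sip53 replicate 1, and that of G1 regulators -0.022 without siControl replicate 2. Matrix genes, at -0.112 in the main fit, were at 0.0080 without sip53 replicate 2 and up to 0.114 under another processing setting. The EGF list reached 0.048 without 1 library and 0.151 under another processing setting. Integrins were at -0.046 with the trend of length and GC removed. The genes called higher and lower numbered 610 and 787, 621 and 818 with RLE scaling, 724 and 796 with upper-quartile scaling, 880 and 1034 with DESeq2, 737 and 1092 with no count filter, 678 and 845 with a stricter filter, 720 and 765 with the trend of length and GC removed, and 68 and 216 in the 0 h libraries alone, which have fewer samples to estimate the spread. Leaving out 1 library gave 136 to 1052 higher and 153 to 1199 lower genes. The share of calls that were higher was 43.7%, 23.9% in the 0 h libraries alone and 51.5% without siControl replicate 1. For the difference with E2, 0 genes were called, against 2 with DESeq2, 45 with no count filter and 0 to 1 without 1 library, and the cause was not tested. A replicate block gave 621 higher and 827 lower genes. Same-numbered libraries correlated at 0.046, 0.144 and -0.044 in their deviations from the group means, so the numbers were not shown to pair the samples. Genes picked by the naming rules, not all of which are described here, were followed too. In the 0 h libraries alone 216 of them lost their call and 117 kept their outcome. The call was lost by 48 with the trend removed, 32 with no filter, 11 with the block, 3 with DESeq2, and 23 to 201 without 1 library.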
